A study of Mus musculus with 12 samples.

Results

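The nuclear genes for respiratory complexes II to V were taken as the rows of both deposited tables whose symbol is Sdha to Sdhd, Cyc1 or Cycs or begins with Uqcr, with Cox4 to Cox8 followed by a letter, or with Atp5. This gave 49 of 23790 genes. They comprise 4 genes of complex II, 9 of complex III, cytochrome c, 18 of complex IV and 17 of complex V. Ndufa4 was left out, so that complex IV is described without it. RNA-seq of polyadenylated RNA was made from purified mouse colonocytes, the absorptive epithelial cells of the colon, with the C15ORF48/miR-147 locus (WT) or without it (C15ORF48/miR-147 KO). Both genotypes were sampled without treatment and after 3 days of 3% dextran sodium sulfate (DSS), which damages the lining of the colon, and each of the 4 groups has 3 libraries. In the labels the protocol text mentions DSS for each of the 12 libraries, but the treatment entry is none for the untreated groups; the entry and the titles were followed. The labels do not give the strain, age or sex of the mice, how the locus was deleted, or whether each library is a mouse of its own, so that p-values speak only of the spread among these libraries.

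Complex II (succinate dehydrogenase) hands electrons from succinate to ubiquinone, complex III passes them on to cytochrome c, and complex IV (cytochrome c oxidase) gives them to oxygen. Complexes III and IV pump protons, and complex V (ATP synthase) uses the proton gradient to make ATP. Colonocytes are known for burning butyrate from the gut bacteria through this chain, and several complex IV subunits come as pairs of genes, with a widely used form and a form known from muscle, heart, lung or testis.

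The libraries held 20618689 to 26848463 reads when untreated and 12626228 to 16714450 under DSS. AA467197, the mouse gene of C15ORF48, had 430.1, 442 and 430.2 RPKM in WT and 5.67, 4.35 and 4.03 in KO untreated, and 403, 370.3 and 515 RPKM in WT and 6.54, 7.33 and 9.19 in KO under DSS, so every KO library was low. Epithelial markers were high in all 12 libraries, with Epcam at 1055 to 1444 RPKM and Krt8 at 1276 to 1922 RPKM. The summed RPKM of 12 epithelial markers was 14482 to 20599 in WT and 15912 to 19381 in KO untreated, and 9284 to 14291 in WT and 16268 to 20657 in KO under DSS, where Car1 made up most of the gap with 4957 ± 1745 and 11707 ± 1700 RPKM (SD, n = 3 per group). Under DSS 8 of the 12 epithelial markers had a log2 fold change above 0. Among the others Car2 had 1038 ± 185 RPKM in WT and 728 ± 25.3 in KO. The sum of 6 pan-leukocyte markers was 12.9 to 18.3 in WT and 13.2 to 20.7 in KO untreated, and 15.4 to 17.5 in WT and 19.0 to 33.1 in KO under DSS. The sum of 6 macrophage markers, with 4 of the 6 below 1 RPKM in every library, was 2.98 to 7.24 in WT and 4.60 to 6.07 in KO untreated, and 1.64 to 3.00 in WT and 5.13 to 12.2 in KO under DSS. C1qa, called under DSS, had 0.167 ± 0.142 RPKM in WT and 3.01 ± 1.67 in KO under DSS, and 3.87 ± 1.77 in WT and 3.07 ± 0.669 in KO untreated. The sum of 3 neutrophil markers was at most 0.266 untreated, and 0.255 to 1.32 in WT and 1.35 to 9.97 in KO under DSS. T cell markers summed to 5.51 to 8.14 in WT and 4.86 to 8.11 in KO untreated, and 4.26 to 7.12 in WT and 8.10 to 17 in KO under DSS. No marker of these lists was without a read in all 12 libraries, and the part of these shifts in the results that follow was not tested, and in such bulk RNA fewer cells of a type and less RNA per cell cannot be told apart.

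Most subunit genes were listed above 100 RPKM, and 6 that encode standard subunits stood far below the rest. RPKM scales reads by transcript length and by library depth, so levels of different genes may be compared on it only as far as the length used for each gene holds. Of the 49 members, 37 had a mean over the 12 libraries of 100.6 RPKM or more, and the other 12 lay under 15 RPKM. The 12 low members were of 2 kinds, 6 tissue or testis forms of complex IV and 6 genes known to be used widely across tissues. The latter are Cycs, the single somatic gene of cytochrome c, Cox7c of complex IV, and Atp5g1, Atp5g2, Atp5l and Atp5md of complex V.

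**Figure D1:**
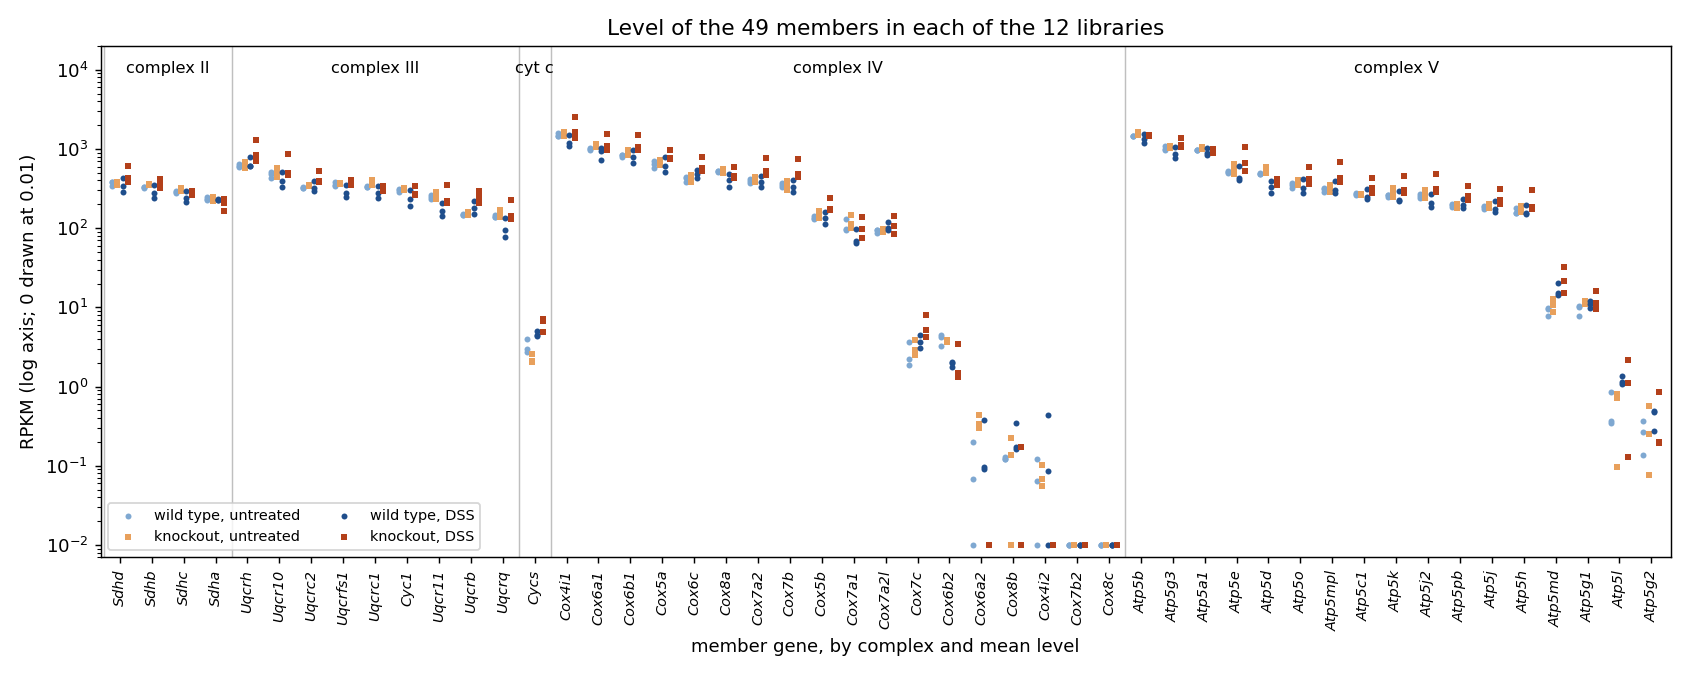
RPKM (log axis) of the 49 members in each library, grouped by complex and ordered by mean level; each point is 1 library, coloured by group. Most members lie above 100 RPKM, and Cycs and 5 genes of complexes IV and V lie far below their partners. The tissue forms of complex IV other than Cox7a1 lie below 5 RPKM, and all of these but Cox6b2 lie at or near 0.

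Those 6 genes share a feature of sequence that the choice of members did not use. Their coding sequences occur again, whole or nearly whole, at another place in the mouse genome, in a copy that the GENCODE annotation of GRCm38 lists as a processed pseudogene, except that Gm10053, the copy of Cycs, is listed as protein coding. Every 50-base word of the coding sequence of Atp5g2, Atp5l, Cox7c, Cycs and Atp5md, and 99.7% of those of Atp5g1, also stood in a transcript of another locus. Such a share over 90% was found in 6 of 49 members (12.2%) and in 4.26% of 21893 coding genes. These 6 members had means of 0.347 to 14.9 RPKM, while the 17 members with a lower share, up to 72.9%, all had a mean of 100.6 RPKM or more. Of the 26 members with no repeated word, 6 tissue forms lay below 5 RPKM and the other 20 had a mean of 101.9 RPKM or more. With 75-base words 6 members exceeded 90%. Over the whole transcript, to which RPKM refers, the 50-base shares were lower, at 11.6% for Atp5g1, 28.5% for Cycs and 40.6% for Atp5md. They were 53.0% for Cox7c, 68.5% for Atp5l and 100% for Atp5g2. Uqcrb (43.2%) and Atp5h (50.5%), listed at means of 183 and 181 RPKM, lay within that range, so the whole transcript does not set the 6 apart. The part of repeated sequence in the low levels was not tested. How reads that match several places were counted is not given in the sources used here, so the levels of these 6 genes are uncertain and their true rank cannot be read from the tables.

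**Figure D2:**
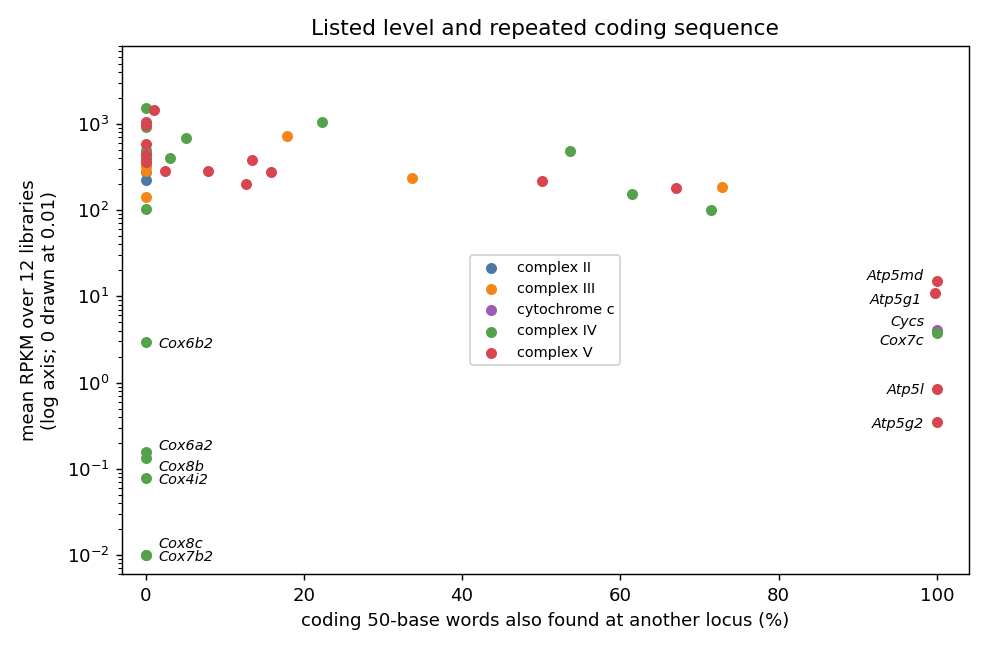
Mean RPKM over the 12 libraries (log axis) against the percentage of 50-base words of the coding sequence that also occur at another locus; each point is 1 member, coloured by complex. The 6 members near 100% lie between 0.347 and 14.9 RPKM, and the low members at 0% are tissue forms of complex IV.

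Cox7c, a small subunit of complex IV, is given in full because its copy Gm12338 is itself listed in the tables. The gene is at chr13:86044798-86046795, minus strand (GRCm38, RefSeq), and all 189 of its 189 coding bases are found unchanged in Gm12338 on chromosome 11. The line below is therefore the coding sequence of both genes, so that no read within it can tell them apart.
Cox7c and Gm12338: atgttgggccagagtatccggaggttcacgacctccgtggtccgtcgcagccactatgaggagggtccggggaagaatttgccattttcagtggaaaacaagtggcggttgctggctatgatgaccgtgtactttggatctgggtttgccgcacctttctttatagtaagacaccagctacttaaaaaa
Cox7c had 3.66, 2.23 and 1.89 RPKM in WT and 2.91, 2.53 and 3.87 in KO untreated, and 3.1, 4.47 and 3.6 RPKM in WT and 7.92, 5.16 and 4.22 in KO under DSS. Its copy was listed far higher in every library, with 46.4, 42.6 and 38.4 RPKM in WT and 49.7, 44 and 42.7 in KO untreated, and 31.5, 26.7 and 42.6 RPKM in WT and 66.6, 40.9 and 43.5 in KO under DSS. The copy was thus the higher row in 12 of 12 libraries. Whether reads of one gene were counted for the other was not tested.

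The other copies differ from their members by few bases or by none. Atp5l (309 coding bases) is matched without a difference by Gm10221 on chromosome 5, Cycs (315) by Gm10053 on chromosome 19, Atp5g2 (438) by Gm10231 on chromosome 17 and Atp5md (174) by Gm14539 on the X chromosome. Atp5g1 differs from Gm10039 on chromosome 11 at 1 of 408 bases. Uqcrb, a complex III subunit listed at a mean of 183 RPKM, differs from its copy Gm16089 on chromosome 5 at 7 of 333 bases. Even so, 72.9% of its 50-base coding words stood at another locus, over 4 pseudogenes, the highest share after the 6 genes. The stretches below cover bases 296 to 385 of the coding sequence for the Atp5g1 pair and bases 18 to 107 for the Uqcrb pair, with the bases that differ in capitals.
Atp5g1: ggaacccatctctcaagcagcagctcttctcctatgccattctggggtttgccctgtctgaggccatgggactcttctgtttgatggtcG
Gm10039: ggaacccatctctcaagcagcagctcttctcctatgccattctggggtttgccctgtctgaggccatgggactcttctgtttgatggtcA
Uqcrb: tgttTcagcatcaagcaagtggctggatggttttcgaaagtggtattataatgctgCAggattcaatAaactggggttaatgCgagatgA
Gm16089: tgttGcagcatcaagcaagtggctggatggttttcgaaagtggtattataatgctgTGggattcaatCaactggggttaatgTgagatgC
The Uqcrb pair is told apart at 6 bases in this window and the Atp5g1 pair at 1, at the window's end. Each window was picked as the stretch of its length with the most differences. Values of these copies were not analysed here.

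The 4 genes of complex II had means over the 12 libraries of 224 RPKM (Sdha) to 389 RPKM (Sdhd). Sdhd, the small membrane anchor, was the highest, with 383, 382 and 339.6 RPKM in WT and 386, 353 and 357 in KO untreated, and 341, 289 and 427 RPKM in WT and 605, 382 and 424 in KO under DSS. Sdhb, which carries the iron-sulfur clusters, had 330.4, 322 and 334 RPKM in WT and 346, 361 and 349 in KO untreated, and 281, 237 and 349 RPKM in WT and 420.0, 319 and 351 in KO under DSS. The order of the 4 group means was the same, Sdhd above Sdhb above Sdhc above Sdha, in every group, and the ranges of Sdhd and Sdhb overlapped in every group except untreated WT. Sdhc, the other membrane anchor, had 293, 284 and 277 RPKM in WT and 304, 319 and 295 in KO untreated, and 241, 214 and 297 RPKM in WT and 298, 263 and 268 in KO under DSS. Sdha, the flavoprotein that oxidises succinate, had 232, 225 and 249 RPKM in WT and 220.4, 231 and 250.03 in KO untreated, and 224, 233 and 225 RPKM in WT and 163, 234 and 207 in KO under DSS. KO replicate 1 was the highest of the DSS libraries for Sdhd, Sdhb and Sdhc and the lowest for Sdha.

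In complex III the hinge protein gene Uqcrh led in RPKM and Uqcrq, which holds a small subunit next to cytochrome b, came last. The rank of Uqcrq rests on the length behind its RPKM, 1525 bases, beside 548 for Uqcrb and 436 for Uqcr11. In reads over the 12 libraries Uqcrq had 49507, above Uqcrb with 22224 and Uqcr11 with 23688. Uqcrh had 602, 647 and 585 RPKM in WT and 691, 581 and 634 in KO untreated, and 613, 616 and 786 RPKM in WT and 1294, 703 and 829.9 in KO under DSS. Uqcrq had 138, 146 and 137 RPKM in WT and 168, 138 and 150.3 in KO untreated, and 96, 78.3 and 134 RPKM in WT and 227, 132 and 144 in KO under DSS. For both genes KO replicate 1 was the highest of the DSS libraries and the genotypes overlapped in both tables. The remaining members lay between them, with means over the 12 libraries of 502 RPKM for Uqcr10, 361 for the core protein Uqcrc2, 350.1 for the Rieske iron-sulfur protein Uqcrfs1, 327 for the core protein Uqcrc1, 287 for cytochrome c1 (Cyc1), 233 for Uqcr11 and 183 for Uqcrb.

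In complex IV, Cox4i1, the largest nuclear-encoded subunit, was the highest with 1572, 1466 and 1467 RPKM in WT and 1622, 1534 and 1470.5 in KO untreated, and 1185, 1084 and 1493 RPKM in WT and 2503, 1390.1 and 1649.6 in KO under DSS. KO replicate 1 stood far above the other 5 DSS libraries, and the genotypes overlapped in both tables. Cox6a1 (1052 RPKM over the 12 libraries), Cox6b1 (925), Cox5a (693), Cox6c (490.2), Cox8a (487), Cox7a2 (445) and Cox7b (401) followed, with Cox5b (154), Cox7a1 (102) and Cox7a2l (101) below them. Cox7a2l is known as a factor that joins complexes III and IV into supercomplexes rather than as a standard subunit.

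In complex V the catalytic beta subunit gene Atp5b led, with 1462, 1461 and 1438 RPKM in WT and 1543, 1615 and 1504 in KO untreated, and 1345, 1191 and 1555 RPKM in WT and 1507, 1458 and 1482 in KO under DSS. All 3 untreated KO libraries lay above WT, and under DSS the highest library was a WT one. Its alpha partner Atp5a1 had a mean of 971 RPKM, and the other F1 subunits had 287 (gamma, Atp5c1), 434 (delta, Atp5d) and 577 RPKM (epsilon, Atp5e). Of the stalk subunits Atp5o (OSCP) had 381, Atp5pb (b) 215, Atp5h (d) 181 and Atp5j (F6) 201 RPKM, and of the small membrane subunits Atp5j2 (f) had 279, Atp5k (e) 284 and Atp5mpl 361 RPKM. The lowest tested member was Atp5l, the membrane subunit g, with 0.346, 0.85 and 0.367 RPKM in WT and 0.795, 0.713 and 0.0968 in KO untreated, and 1.36, 1.15 and 1.09 RPKM in WT and 2.16, 1.1 and 0.127 in KO under DSS. The genotypes overlapped in both tables, and KO replicate 5 untreated and KO replicate 3 under DSS held a single read each. Atp5md, another small membrane subunit, had 9.02 ± 1.05 and 10.7 ± 2.09 RPKM in WT and KO untreated and 16.5 ± 3.18 and 23.2 ± 8.65 under DSS (SD, n = 3 per group). Both are among the 6 genes with a copy of the coding sequence elsewhere.

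Side by side, WT levels under DSS were not ordered the same way for all members against untreated WT. Atp5d had 489 ± 12 RPKM untreated and 333 ± 54.6 under DSS in WT, and Cox8a had 518 ± 10.6 and 407 ± 74.1, with no overlap of the libraries in either. Uqcrb, in contrast, had 148 ± 3.6 untreated and 183 ± 32.6 under DSS in WT. The tables were normalised separately and DSS cannot be told apart from other differences between them, so these levels were not tested against each other.

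The colonocyte form carried nearly all of the message in most paralog pairs, and Cox7a was the exception. Cox7a1, the form known from heart and skeletal muscle, had 131, 95.2 and 97.8 RPKM in WT and 145, 101 and 112 in KO untreated, and 68.6, 65.5 and 96.8 RPKM in WT and 139, 96.6 and 75 in KO under DSS. Cox7a2, the widely used form, had 393, 416 and 370.4 RPKM in WT and 446, 394 and 384 in KO untreated, and 386, 329 and 459 RPKM in WT and 769, 465 and 534 in KO under DSS. The genotypes overlapped for Cox7a1 in both tables and for Cox7a2 untreated, while all KO libraries lay above WT for Cox7a2 under DSS. Cox7a1 made up 21.5 ± 3.19% of the pair in WT and 22.5 ± 2.12% in KO untreated, and 16.4 ± 1.19% in WT and 14.9 ± 2.46% in KO under DSS (SD, n = 3 per group). The share did not differ beyond the spread of the libraries between genotypes, with a difference of 1.03 percentage points untreated (exact 2-sided permutation p = 0.8) and −1.45 under DSS (exact p = 0.5), in a design whose smallest p is 0.1. The 6 untreated shares ran from 18.6% to 24.9% and the 6 DSS shares from 12.3% to 17.4%, a gap across tables that was not tested. Neither coding sequence repeats elsewhere. Striated muscle markers were low in the same libraries, with Ckm at most 0.631 RPKM and Tnnt3 at most 0.443, although Acta1 reached 12.9 RPKM, and smooth muscle markers summed to at most 9.04 RPKM.

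The other tissue forms were close to silent. Cox6a2, the heart and muscle partner of Cox6a1, had 0.0673, 0.199 and 0 RPKM in WT and 0.433, 0.333 and 0.301 in KO untreated, and 0.096, 0.0896 and 0.377 RPKM in WT and 0, 0 and 0 in KO under DSS. These values rest on 27 reads over the 12 libraries and at most 7 in any of them, and no read was found in the KO libraries under DSS, while the untreated KO libraries, with 4 to 7 reads, all lay above WT, with 0 to 3. Cox6a1 had 1036, 974 and 999.6 RPKM in WT and 1169, 1118 and 1062 in KO untreated, and 945, 715 and 1014 RPKM in WT and 1528, 976 and 1081 in KO under DSS, with the untreated KO libraries all above WT. Cox4i2, a form known from lung, held 13 reads in all and at most 0.435 RPKM, and Cox8b, a muscle form, held 11 reads and at most 0.348 RPKM. Cox8a, the widely used member of the Cox8 family, had 507, 528 and 521 RPKM in WT and 502, 566 and 511 in KO untreated, and 409, 332 and 481 RPKM in WT and 594, 431 and 459 in KO under DSS, with overlap of the genotypes in both tables. Cox7b2 and Cox8c, forms known from testis, were without a read in all 12 libraries, which allows up to 3 reads in each.

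Cox6b2, a testis form, was detected above that level but made up less than 1% of its pair. It had 4.53, 4.24 and 3.2 RPKM in WT and 3.9, 3.74 and 3.62 in KO untreated, and 1.74, 2.01 and 2.01 RPKM in WT and 3.46, 1.32 and 1.48 in KO under DSS, and the genotypes overlapped in both tables. Cox6b1 had 827, 828 and 799 RPKM in WT and 959.7, 839 and 862 in KO untreated, and 793, 658 and 980.4 RPKM in WT and 1509, 971 and 1067 in KO under DSS. The untreated KO libraries lay above WT for Cox6b1, and under DSS WT replicate 3 lay above KO replicate 2. The Cox6b2 share was 0.484 ± 0.0757% in WT and 0.422 ± 0.0197% in KO untreated (exact 2-sided permutation p = 0.4), and 0.243 ± 0.0537% and 0.168 ± 0.0528% under DSS (exact p = 0.3, n = 3 per group).

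Subunit c of ATP synthase is made from Atp5g1, Atp5g2 and Atp5g3, which encode the same mature protein. Atp5g3 had 1095, 1009 and 972 RPKM in WT and 1101, 1068 and 1037 in KO untreated, and 876, 765 and 1061 RPKM in WT and 1374, 1049 and 1116 in KO under DSS. Atp5g1 had 9.97, 7.84 and 10.4 RPKM in WT and 11.9, 11.3 and 10.9 in KO untreated, and 11.1, 9.73 and 12.2 RPKM in WT and 15.9, 11.3 and 9.64 in KO under DSS. In Atp5g1 the untreated KO libraries lay above WT and the DSS groups overlapped. Atp5g2 had 0.137, 0.27 and 0.364 RPKM in WT and 0.252, 0.566 and 0.0767 in KO untreated, and 0.489, 0.274 and 0.48 RPKM in WT and 0.855, 0.193 and 0.202 in KO under DSS, on 50 reads in all. Atp5g3 therefore held 98.7% to 99.2% of the summed RPKM, but it is the only gene of the 3 whose coding sequence has no repeated word, so the division between the 3 genes is uncertain. The Atp5g1 share did not differ between genotypes beyond the spread of the libraries (exact 2-sided permutation p = 0.3 untreated and 0.2 under DSS, n = 3 per group).

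In untreated mice no member of complexes II to V passed the test between KO and WT, and the differences were small. The test was limma on log2(RPKM + 1), called at an adjusted p under 0.05 over all genes tested. Of the 49 members 42 reached the level needed for the test, 1 RPKM in at least 3 of the 6 libraries, and 0 were called, against 0.0181% of 11072 genes tested, which is 2 genes. Cox4i2, Cox6a2, Cox7b2, Cox8b, Cox8c and Atp5g2 were too low to be tested in either table, and Atp5l was too low untreated. At an unadjusted p under 0.05 there were 2 members, Cycs and Atp5g1, both with a copied coding sequence, which is 4.76% of the 42 beside 9.09% of all genes tested. The authors' deposited table has 0 of the 42 at a false discovery rate under 0.05, where it has 2 of all genes, and a lowest rate of 0.784 among the 42. The median log2 fold change was 0.07 over the members, with 36 of 42 above 0 beside 53.3% of all genes tested. This count depended on the scaling: with each library's length trend taken out 23 of 42 were above 0, with a median of 0.0067, and with quantile normalization 30 were. Without KO replicate 2 it was 28 of 42. By complex the medians were 0.04 for complex II, 0.06 for complex III with cytochrome c, 0.05 for complex IV and 0.09 for complex V, and 0.07 for 36 complex I subunit genes. With the length trend taken out the median was 0.0039 for complex III with cytochrome c and −0.0083 for complex IV, and without KO replicate 2 it was 0.017 for each of them.

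In 9 members the 3 KO libraries lay above the 3 WT libraries, 21.4% of the 42 beside 8.32% of all genes tested. They were Sdhb and Sdhc, the core proteins Uqcrc1 and Uqcrc2, Cox6a1 and Cox6b1, and Atp5a1, Atp5b and Atp5g1. Uqcrc1, which helps form the large matrix part of complex III, had 344, 331 and 327 RPKM in WT and 369, 401 and 350.4 in KO, and differed by 0.16 (SE 0.084, limma adjusted p = 0.587) on the log2 scale. On the same scale Cox6a1 differed by 0.15 (SE 0.094, limma adjusted p = 0.627), Sdhc by 0.10 (SE 0.075, limma adjusted p = 0.675) and Atp5g1 by 0.26 (SE 0.11, limma adjusted p = 0.546). Each of these differences was small beside the change of Ndufa4, a subunit of complex IV, which was higher in KO by 1.46 (SE 0.11, limma adjusted p = 0.00625), while the 13 tested members of complex IV ran from −0.06 to 0.21. The values of KO replicate 2 were the highest of the 6 libraries in 25 of 42 members, and without that library the median over the members was 0.02.

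Cytochrome c was the only tested member whose KO libraries all lay below WT in untreated mice, 2.38% of the 42 beside 7.68% of all genes tested. Cycs had 4.04, 3 and 2.75 RPKM in WT and 2.57, 2.08 and 2.01 in KO untreated, and 4.39, 4.46 and 5.03 RPKM in WT and 4.86, 6.71 and 7.07 in KO under DSS, on 128 to 341 reads per library. The untreated groups did not overlap, and KO minus WT was −0.40 (SE 0.13, limma adjusted p = 0.51) on the log2 scale. Under DSS 2 of the 3 KO libraries lay above all WT libraries and the third between them, and KO minus WT was 0.35 (SE 0.15, limma adjusted p = 0.267). The KO minus WT difference under DSS lay above the untreated one by 0.74 (SE 0.21, limma adjusted p = 0.0868).

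Under DSS the mean of nearly every tested subunit gene was higher in KO, but the spread between libraries was large and no member passed. Of 43 tested members 41 had a log2 fold change above 0, beside 49.2% of all 10990 genes tested, and the median was 0.39. The medians were 0.24 for complex II, 0.41 for complex III with cytochrome c, 0.41 for complex IV and 0.39 for complex V, and 0.34 for 36 complex I subunit genes. With the length trend taken out they were 0.21 for complex III with cytochrome c, 0.10 for complex IV and 0.094 for complex V, and without KO replicate 1 they were 0.28, 0.26 and 0.19. The members called were 0, beside 0.764% of all genes (84 genes), and 10 members (23.3%) had an unadjusted p under 0.05, beside 18.7% of all genes. The authors' deposited table gives a median of 0.42 for the 43, with 20 at an unadjusted p under 0.05 (46.5%, beside 20.7% of the 10990 genes tested here). The authors' deposited table has 0 of the 43 at a false discovery rate under 0.05, where it has 206 of all genes, and a lowest rate of 0.153 among the 43.

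**Figure D3:**
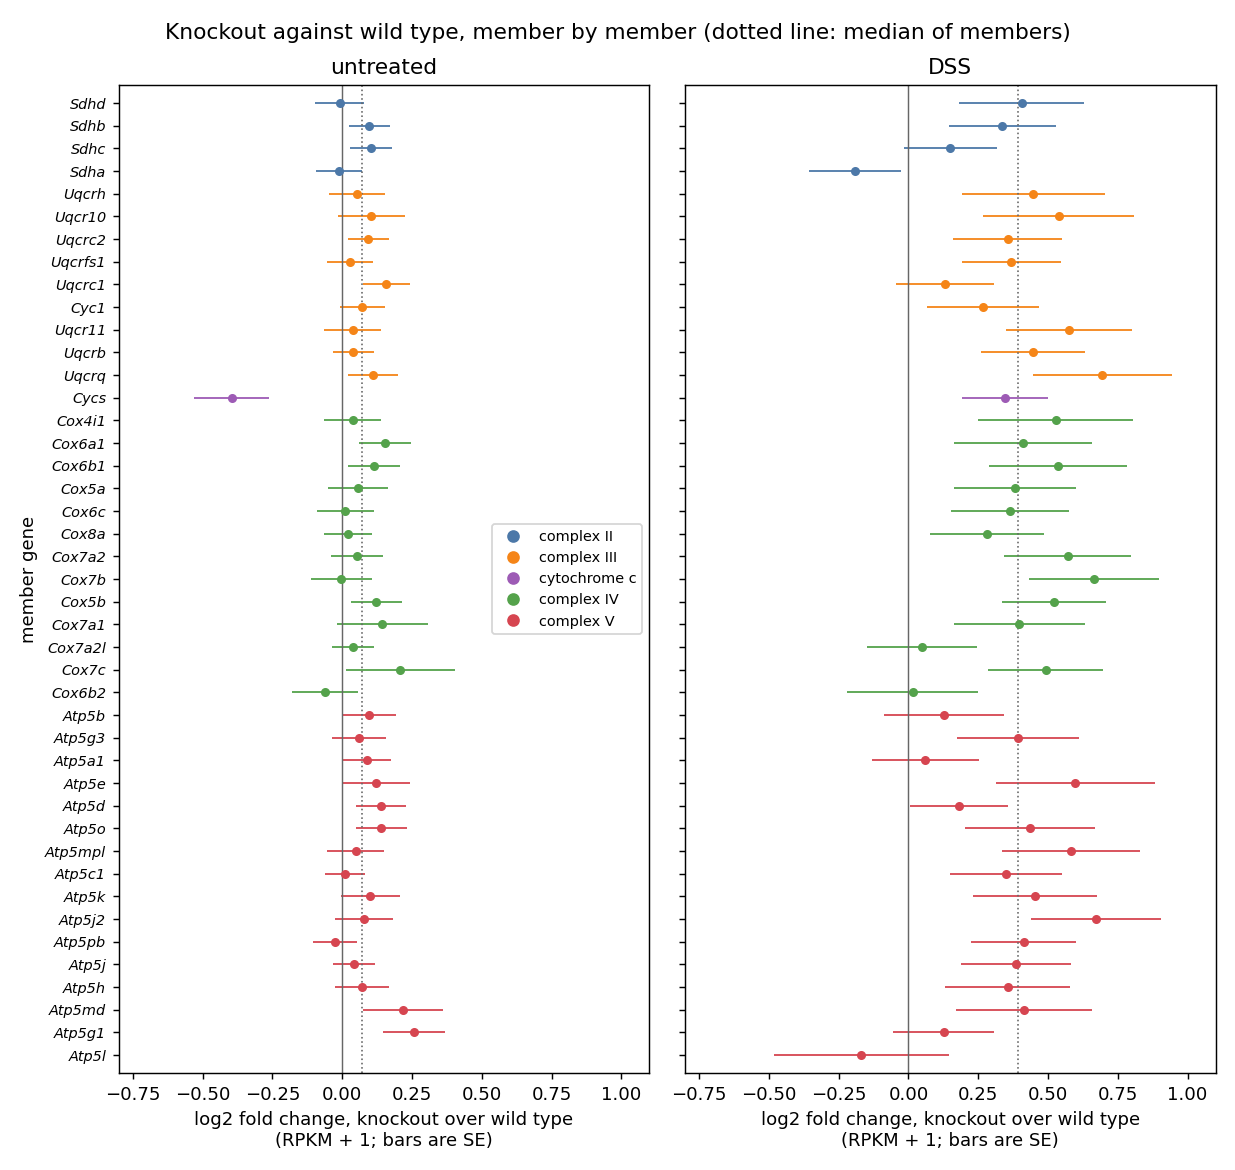
Log2 fold change of KO over WT with its SE (bars) for each tested member, untreated (left) and under DSS (right), coloured by complex; the dotted line is the median of the members. Under DSS 41 of 43 members lie right of 0, with a median of 0.39, and untreated 36 of 42 do, with a median of 0.07; with the length trend taken out, which is not drawn, these counts are 35 and 23.

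The groups were free of overlap, KO above WT, in 5 members, 11.6% of the 43 beside 11.1% of all genes tested, and KO lay wholly below WT in 0 beside 11.9%. They were Uqcr11 of complex III, Cox5b, Cox7a2 and Cox7b of complex IV, and Atp5j2 of complex V. Atp5j2, a subunit of the membrane part of ATP synthase, had the smallest p of complex V. It had 258, 272 and 244 RPKM in WT and 306, 241 and 273 in KO untreated, and 210.4, 185 and 274 RPKM in WT and 482, 285 and 315 in KO under DSS, where KO minus WT was 0.67 (SE 0.23, limma adjusted p = 0.197) on the log2 scale. Cox7b, a small subunit of complex IV encoded on the X chromosome, had 355, 372 and 328 RPKM in WT and 394, 307 and 355 in KO untreated, and 335, 289 and 409 RPKM in WT and 741, 440.2 and 485 in KO under DSS. Its log2 fold change was 0.66 (SE 0.23, limma adjusted p = 0.2) under DSS and −0.0029 untreated. Without KO replicate 1 the difference under DSS was 0.44 for each. For both genes KO replicate 1 stood well above the other 2 KO libraries, and KO replicate 2 lay only a little above WT replicate 3.

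Uqcrq had the largest log2 fold change of all members under DSS, 0.69 (SE 0.25, limma adjusted p = 0.202), but WT replicate 3, at 134 RPKM, lay above KO replicate 2, at 132 RPKM. Sdhd had the smallest p of complex II, with 0.41 (SE 0.23, limma adjusted p = 0.34), and 0.21 without KO replicate 1. Cox4i1 had 0.53 (SE 0.28), Uqcrh 0.45 (SE 0.26) and Cox6a1 0.41 (SE 0.25), and without KO replicate 1 these were 0.29, 0.19 and 0.22. With the length trend taken out they were 0.26, 0.13 and 0.10. Several large core subunits had values nearer 0, with Uqcrc1 at 0.13 (SE 0.18), Atp5b at 0.13 (SE 0.21) and Atp5a1 at 0.061 (SE 0.19), and with quantile normalization Uqcrc1 had −0.07 and Atp5b −0.09. Below 0 were Sdha at −0.19 (SE 0.16) and Atp5l at −0.17 (SE 0.31), the latter on 1 to 14 reads per library. Ndufa4 stood apart from these, higher in KO by 1.70 (SE 0.25, limma adjusted p = 0.034), while the 13 tested complex IV members ran from 0.01 to 0.66.

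The members' positive median under DSS was not shared evenly by the libraries. The median deviation of the members from the WT mean was 0.74 in KO replicate 1, 0.15 in replicate 2 and 0.29 in replicate 3, and −0.04, −0.22 and 0.26 in the WT replicates 1 to 3, on the log2 scale. WT replicate 3 therefore lay above KO replicate 2 and the groups overlapped. KO replicate 1 was the highest of the 6 libraries in 38 of 43 members, and WT replicate 2 the lowest in 34. Without KO replicate 1 the median log2 fold change was 0.22, with 38 of 43 members above 0, and without WT replicate 2 that of complex II was 0.12. The complex I genes followed the same order of libraries, with medians of 0.69, 0.13 and 0.25 in KO and −0.05, −0.20 and 0.24 in WT.

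**Figure D4:**
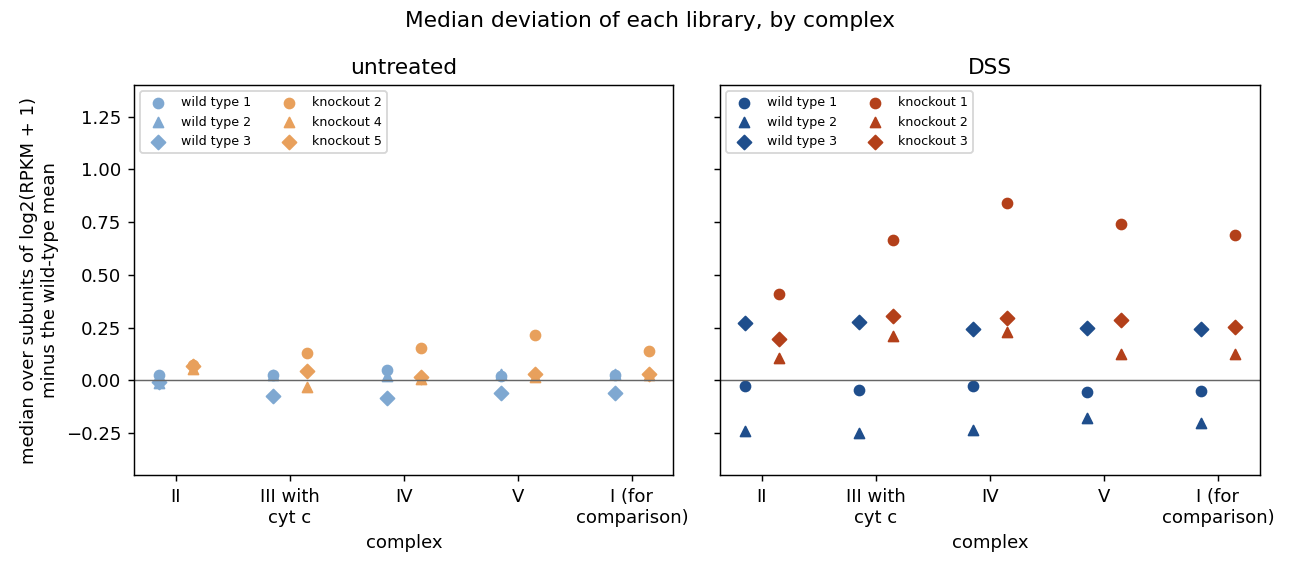
Median over the tested subunit genes of each complex of log2(RPKM + 1) minus the WT mean of the same table, 1 point per library, with complex I for comparison. Under DSS KO replicate 1 lies highest in every complex and WT replicate 3 lies above KO replicate 2; untreated medians stay between −0.08 and 0.21.

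The genotype difference under DSS went along with transcript length. Most members are short messages, and over all genes tested under DSS the log2 fold change was lower in longer genes. Genes of up to 1000 bases had a median of 0.28 over 771 genes, and longer genes one of −0.02 over 10219. Members of up to 1000 bases had a median of 0.44 (n = 27) and longer members one of 0.34 (n = 16). Uqcrq, with the largest log2 fold change of the members, counts as a longer member at 1525 bases. The longer members are short within their class, with a median length of 1590.5 bases, and the all-gene bins nearest to it had medians of 0.17 (1519 bases) and 0.08 (1752 bases). Across the 43 members Spearman's rho of log2 fold change and length was −0.46, as a description over genes that share the same 6 libraries. KO replicate 1 had the steepest slope of all 12 libraries, −0.29 per doubling of length over all genes tested, and in it short members deviated by 0.85 and long members by 0.50. With the length trend of each library taken out the members' median was 0.13 with 35 of 43 above 0, and with quantile normalization it was 0.16, also with 35 above 0. Of the long members Sdha (2859 bases), Atp5a1 (2431) and Atp5b (1879) were among the lowest, while Cycs (3154) had 0.35 and Uqcrc2 (1882) had 0.35. The part of length in the genotype difference was not tested beyond this.

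**Figure D5:**
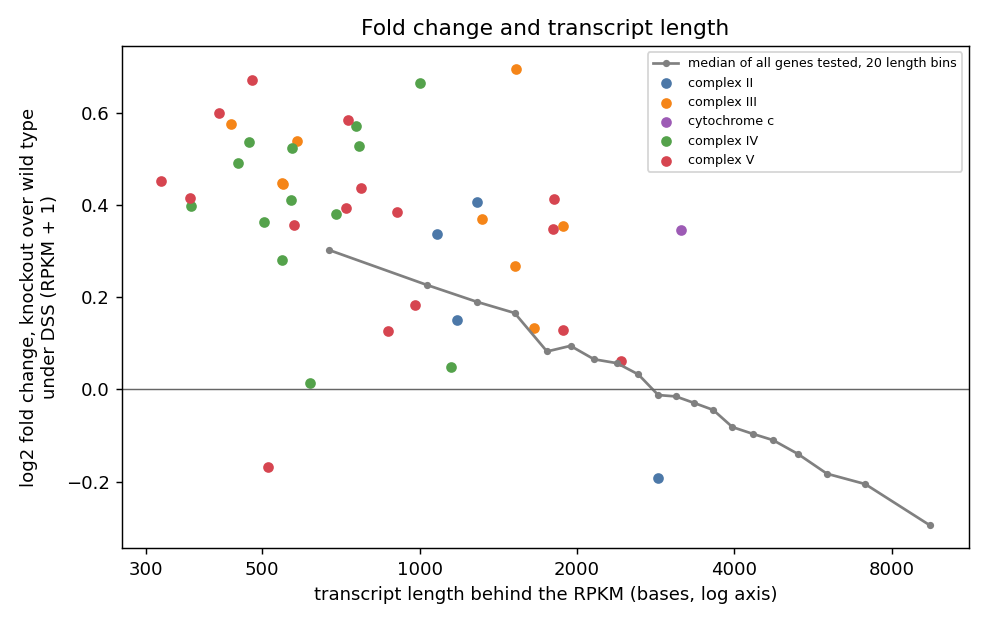
Log2 fold change of KO over WT under DSS against transcript length in bases (log axis); points are the 43 tested members, coloured by complex, and the grey line joins the medians of all genes tested in 20 length bins. The grey line is lower at greater length, and most members lie above it.

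The genotype difference under DSS was then set against the untreated one in a fit of all 12 libraries, with each difference taken within its own table. No member passed, beside 1.4% of 11306 genes tested, and 38 of 43 had a positive value beside 49.6% of all genes, with a median of 0.33. At an unadjusted p under 0.05 there were 3 members (6.98%), beside 19.0% of all genes tested. They were Cycs with 0.74 (SE 0.21, limma adjusted p = 0.0868), Cox7b with 0.67 (SE 0.27, limma adjusted p = 0.21) and Atp5j2 with 0.59 (SE 0.27, limma adjusted p = 0.26). Without KO DSS replicate 1 the median was 0.14 and Cycs was called (limma adjusted p = 0.0255), as it was with the length trend taken out (limma adjusted p = 0.0405). An effect of DSS and any other difference between the tables cannot be told apart here. The comparisons share their libraries with the contrasts above and add no separate support to them.

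Genes that build or serve these complexes were in no case called. Under DSS a log2 fold change above 0 was found in 4 of 4 tested assembly factors of complex II (median 0.31), 5 of 6 of complex III (0.11) and 16 of 20 of complex IV (0.24), and untreated in 4 of 4 (0.09), 4 of 6 (0.09) and 16 of 20 (0.04). Of all genes tested 49.2% lay above 0 under DSS and 53.3% untreated. Below 0 under DSS were Bcs1l of complex III (−0.10) and 4 factors of complex IV, the lowest being Lrpprc (−0.35). The part of transcript length and of single libraries in these values was not tested. Under DSS the lowest adjusted p among them was that of Higd1a, which binds complex IV, at 28.4 ± 6.92 RPKM in WT and 42.7 ± 3.21 in KO (SD, n = 3 per group; log2 fold change 0.60, limma adjusted p = 0.143). Coa3, which supports early complex IV assembly, had 161 ± 33.3 and 248 ± 68.3 RPKM (0.61), and Uqcc2, a complex III assembly factor, had 45 ± 7.70 and 76.9 ± 28.5 RPKM (0.71). Atpif1, the inhibitor of complex V when it runs backwards, had 162 ± 36.1 and 256 ± 66.8 RPKM under DSS (0.65, limma adjusted p = 0.2) and 176 ± 7.32 and 191 ± 6.72 untreated (0.11). All 3 tested genes for the assembly and regulation of complex V had a positive value under DSS. Of 6 carriers and porins 5 had a positive value under DSS, among them the nucleotide carriers Slc25a5 (0.30) and Slc25a4 (0.31), and Vdac1 had −0.11.

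Of 12 genes for known regulators of respiratory genes, 8 had a negative and 4 a positive log2 fold change under DSS, and none was called. Of all genes tested 49.2% had a positive value. Esrrg, an estrogen-related receptor, was the nearest, with 3.45 ± 0.437 RPKM in WT and 1.66 ± 0.233 in KO (KO minus WT −0.74 on the log2 scale, limma adjusted p = 0.0544). The coactivators Ppargc1a (15.8 ± 3.71 and 9.72 ± 1.94 RPKM, −0.64), Ppargc1b (10.7 ± 2.55 and 6.91 ± 1.84, −0.57) and Pprc1 (6.68 ± 1.59 and 4.38 ± 0.575, −0.50) also lay below 0. The members' median was 0.39 in the same libraries, but the part of transcript length in this contrast was not tested. Nrf1 (−0.11), Gabpa (−0.19), Yy1 (−0.11) and Tfb2m (−0.04) were below 0 by less. Above 0 was Chchd2, known in human cells as a regulator of COX4I2, with 155 ± 24.1 and 220 ± 30.5 RPKM (0.51). Gabpb1 (0.28), Tfam (0.19) and Esrra (0.17) were above 0 as well. Esrra, another estrogen-related receptor, was listed far above Esrrg, with 67.4 ± 9.13 and 75.8 ± 10.5 RPKM.

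The promoters of the members were searched for the motifs of such regulators in RefSeq windows of GRCm38.p6, from 250 bases before the transcript start to 50 after it, on both strands. Windows were found for 37 of the 49 members. The motif of NRF1, a factor known to drive respiratory genes, GCGCNNGCGC, stood in 10 of 37 (27.0%), beside 7% of 27025 genes with a window and 15.6% of the genes tested here. The estrogen-related receptor motif TCAAGGTCA stood in 2 of 37 (5.41%), Sdhd and Atp5g3, beside 0.466% of all and 0.289% of tested genes. The ETS motif CCGGAAGT stood in 10.8%, beside 4.31% and 9.71%, the YY1 motif AANATGGCG in 8.11%, beside 2.76% and 6.38%, and CCAAT, the NF-Y motif, in 56.8%, beside 41.1% and 43.1%. SP1's GGGCGG stood in 40.5% of the members, beside 38.2% of all and 69.3% of tested genes, and TATAAA in 10.8%, beside 15.7% and 9.03%. A match is a description of these letters and not a bound site.

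The 250 bases before the start of 2 members are printed because the first holds the most separate NRF1 stretches and the second is the only window with both NRF1 and ETS matches. Sdha is shown from 74350241 to 74350490 on chromosome 13, minus strand, with 3 NRF1 stretches in capitals, each of which reads the same motif on both strands. Atp5h, the gene of a stalk subunit of complex V, is shown from 115419920 to 115420169 on chromosome 11, minus strand, with an NRF1 and, read on the other strand, an ETS match in capitals.
Sdha: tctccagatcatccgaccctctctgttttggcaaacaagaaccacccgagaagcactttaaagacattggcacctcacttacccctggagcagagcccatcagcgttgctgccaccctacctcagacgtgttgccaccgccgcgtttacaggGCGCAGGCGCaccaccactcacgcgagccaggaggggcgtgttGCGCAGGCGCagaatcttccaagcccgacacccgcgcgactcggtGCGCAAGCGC
Atp5h: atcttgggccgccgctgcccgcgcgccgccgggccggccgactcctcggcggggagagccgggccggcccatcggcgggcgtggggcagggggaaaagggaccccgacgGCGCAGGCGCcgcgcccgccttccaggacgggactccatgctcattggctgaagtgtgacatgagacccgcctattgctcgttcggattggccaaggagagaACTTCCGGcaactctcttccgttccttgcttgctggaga
Sdha had a log2 fold change of −0.19 and Atp5h of 0.36 in KO under DSS, and neither passed the test.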

How the data were processed

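Reads were mapped with TopHat2 2.1.1 to GRCm38 (mm10) and compared with edgeR 3.30.3, per the submitters' processing notes; no read counter or annotation is named in the sources used here. The authors deposited 2 tables, untreated and DSS, with RPKM per library. The deposited tables also hold log2 fold changes, an F score, and p-values with false discovery rates, which were copied only where the authors' deposited table is named. Whole reads and transcript lengths were recovered together from the RPKM for 23790 genes, 5392 of them without a read. Each length was picked to make the reads whole, so that 100% lay within 0.02 of a whole number is no separate check. The reads were used for depth and the read numbers given above, the lengths for the length comparisons, and neither for the main tests. In each table, 4 of 23794 lines with repeated date names were left out.

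Genes with at least 1 RPKM in 3 compared libraries were tested with limma 3.58.1 (R 4.3.3) on log2(RPKM + 1), with Benjamini-Hochberg adjustment over all genes tested, called under 0.05; the scale understates changes of low genes. The untreated and DSS groups were fitted apart, and the interaction over 12 libraries. Paralog shares were tested by exact permutation. The limma fit was tried on simulated reads, with changes larger than those of any member and without the length trends of these libraries. That trial says nothing of changes of the size seen here. Alternatives were another pseudocount, filters, quantile normalization, a length correction, other fits and leaving out each library. Coding sequences were cut into words of 50 or 75 bases and sought in the GENCODE transcripts of other loci. Members and lists were chosen with earlier results of these data known. Given with values in every library were the complex II genes, Cycs, the highest, the lowest and the smallest-p tested member of each complex, the 3 smallest interaction p and all paralogs; others that are named were chosen after their values were seen.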

Additional observations from a re-analysis of the deposited data

Results flagged for a closer look

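Cycs, the cytochrome c gene, stood out because its genotype difference pointed opposite ways in the 2 tables: every untreated KO library lay below the WT mean and every KO library under DSS lay above it. The difference between the fold changes was 0.74 (SE 0.21) on the log2 scale, and in the interaction fit it did not pass (limma adjusted p = 0.0868). It was called with the length trend taken out (limma adjusted p = 0.0405) and without KO DSS replicate 1 (limma adjusted p = 0.0255). The gene is listed at 2.01 to 7.07 RPKM and its whole coding sequence is repeated in Gm10053. DSS cannot be told apart from other differences between the tables, and the part of the repeated sequence was not tested.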

How the results depend on the processing

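No member was called between genotypes, untreated or under DSS, in any alternative run. In the interaction 1 member, Cycs, was called with the length trend taken out or with KO DSS replicate 1 left out. With the length trend taken out, the median log2 fold change was 0.0056 for complex II, 0.022 for complex V and 0.0067 for all members untreated, 0.10 for complex IV and 0.094 for complex V under DSS, and 0.12 in the interaction; with quantile normalization complex II untreated had 0.0084. Leaving out each library in turn gave medians untreated of 0.044 to 0.069 for complex II, 0.017 to 0.091 for complex III with cytochrome c, 0.017 to 0.082 for complex IV, 0.012 to 0.12 for complex V and 0.023 to 0.091 for all members, 0.22 to 0.51 for all members under DSS, 0.14 to 0.46 in the interaction, and 0 to 1 interaction calls. The Cox7a1 share difference untreated ran from −0.393 to 2.76 points.

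Of 322 alternatives for the 21 tested of 27 named members, other than leaving out a library, 14 changed sign. Untreated these were, with the length trend taken out, Uqcrh (−0.014), Cox4i1 (−0.021), Cox7a2 (−0.0083) and Cox8a (−0.047), and with quantile normalization Atp5g3 (−0.0017) and Cox8a (−0.050). Under DSS they were Sdhc (−0.040), Uqcrc1 (−0.067) and Atp5b (−0.093) with quantile normalization, Sdhc (−0.051), Cox6b2 (−0.28), Atp5g1 (−0.13) and Cox8a (−0.033) with the length trend taken out, and Cox6b2 (−0.014) with a pseudocount of 0.1. Leaving out a library changed 19 of 282 signs. The untreated ranges were −0.060 to 0.031 for Sdha, −0.066 to 0.020 for Sdhd, −0.0096 to 0.12 for Uqcrh, −0.18 to 0.017 for Cox6b2, −0.088 to 0.092 for Cox7b, −0.0065 to 0.17 for Atp5j2, −0.0067 to 0.29 for Cox7a1, −0.014 to 0.093 for Cox7a2 and −0.033 to 0.053 for Cox8a, and the DSS ranges −0.28 to 0.19 for Cox6b2, −0.51 to 0.23 for Atp5l and −0.062 to 0.27 for Atp5g1. The causes were not tested.

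Genes called over all genes ran untreated from 1 with no filter through 2 to 6 without WT replicate 1, under DSS from 1 (no filter, or without WT replicate 2) through 84 to 364 without KO replicate 1 and 623 with all 12 libraries in one fit, and in the interaction from 1 through 158 to 433 without KO DSS replicate 1 and 539 after the length correction. The replicate block was run under DSS only, since the untreated groups share a single number. Same-numbered libraries correlated at −0.114, 0.359 and 0.133, and differently numbered ones at −0.442 to 0.297. These values were taken after each group of 3 was centred on its own mean, which ties them to each other. They cannot settle whether the numbers pair the libraries. With the block the members' median was 0.39, 0 members were called and 398 genes were called. Depth limits the tissue forms Cox4i2, Cox6a2, Cox7b2, Cox8b and Cox8c, which held 0 to 7 reads per library.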
